A study of Homo sapiens with 24 samples.

Results

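The cytosolic ribosomal protein genes are the 78 protein-coding genes of the count tables whose symbols start with RPL or RPS followed by a digit, or are RPSA, RPLP0, RPLP1 or RPLP2. The rule takes members by symbol, out of 29794 genes in the tables, and uses no measured value, although the family itself was picked with earlier results of these data known. The rule leaves out the 10 RPS6K kinase genes, 8 paralogs with an L suffix, the RPS19 binding protein gene RPS19BP1 and all pseudogenes. Of the 78 members, 32 encode proteins of the small (40S) subunit and 46 encode proteins of the large (60S) subunit or its stalk. All 78 passed the filter on low counts in both batches, where 14348 genes (batch 1) and 14054 genes (batch 2) were tested.

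The measurements were RNA-seq read counts from 24 libraries of Flp-In T-REx 293 cells, a HEK293-derived human embryonic kidney line with a doxycycline-inducible expression system. A lentiviral vector carried doxycycline-inducible GFP with a microRNA (miRNA) hairpin in an intron, and the empty vector cells carried the parent vector without a hairpin. Every group, the empty vector included, was selected in 1 mg/mL Geneticin for 6 days and received 1 µg/mL doxycycline for 7 days. The first batch compared miR-1 and miR-122 with an empty vector, in 2 libraries per group. The second compared miR-155, miR-133a and the same-seed trio miR-373, miR-372 and miR-302a with an empty vector of its own, in 3 libraries per group. Replicates were transduced and kept apart, each miRNA is compared with the empty vector of its own batch only, and all comparisons within a batch share those control libraries. The cells are an immortalized line in which miR-1 and miR-133a (muscle), miR-122 (liver), miR-155 (lymphoid cells) and the same-seed trio (embryonic stem cells) act outside the tissues they are known from, and the tables hold no measurement of the miRNAs themselves.

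Ribosomal proteins, together with ribosomal RNA, form the 2 subunits of the ribosome, and their mRNAs are among the most abundant and most evenly coordinated of dividing cells. Most of these mRNAs begin with a terminal oligopyrimidine (TOP) tract, a cytidine followed by a run of pyrimidines, through which mTORC1 signalling controls their translation. Several members have roles beyond the ribosome: RPL5 and RPL11 bind and inhibit MDM2 when ribosome assembly fails, RPS6 is the substrate of S6 kinase, and mutations in RPS19 cause Diamond-Blackfan anaemia. A miRNA pairs through its seed, positions 2 to 8, with sites in the 3'UTR of its targets and lowers their mRNA.

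The mature sequences from RefSeq are shown because the seed, in capitals, defines which sites were searched in each comparison.
miR-1: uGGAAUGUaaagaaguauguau
miR-122: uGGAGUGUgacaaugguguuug
miR-133a: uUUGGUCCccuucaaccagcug
miR-155: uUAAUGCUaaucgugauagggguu
miR-302a: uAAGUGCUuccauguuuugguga
miR-372: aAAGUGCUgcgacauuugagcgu
miR-373: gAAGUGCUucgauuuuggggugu
miR-302a, miR-372 and miR-373 share 1 seed and therefore 1 set of sites, and the other 4 miRNAs have a seed each.

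The counts summed to 20153452 to 21595191 reads per library in batch 1 and to 13047400 to 35040778 in batch 2. The members took 3.74% to 4.22% of the reads of a library in batch 1 and 3.88% to 5.10% in batch 2. The share averaged 3.91% ± 0.185 (SD, n = 2) in the empty vector of batch 1, 3.77% ± 0.0493 with miR-1 and 4.09% ± 0.176 with miR-122. In batch 2 it averaged 4.09% ± 0.222 (SD, n = 3) in the empty vector, 4.52% ± 0.378 with miR-133a, 4.28% ± 0.524 with miR-155, 4.65% ± 0.523 with miR-302a, 4.58% ± 0.265 with miR-372 and 4.33% ± 0.321 with miR-373. All 5 miRNA means of batch 2 lay above the empty vector mean, but in every group at least 1 library lay below the highest empty vector library (4.32%).

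Levels are given as CPM, read counts scaled to a common library size with TMM factors, and levels between genes are compared per kilobase of counted exon. In the empty vector cells of batch 1, RPS16 of the small subunit had the highest level of 77 members compared (1674 CPM per kilobase ± 65.1, n = 2), followed by RPL8 of the large subunit (1346 ± 69.2). RPS16 lay above RPL8 in each of the 2 libraries, and their ranges did not overlap. The same genes led in the same order in batch 2, at 1702 ± 69.2 and 1449 ± 26.6 CPM per kilobase (n = 3). The median member stood at 235.8 CPM per kilobase in batch 1 and 258.3 in batch 2.

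Most ribosomal proteins enter the ribosome in equal number, but the counted levels per kilobase differed widely. Among the lowest members in batch 1 were RPS27 (3.71 CPM per kilobase ± 0.0122), RPL21 (5.82 ± 0.559) and RPS26 (5.91 ± 1.19), all core components of the ribosome. These genes have many processed pseudogenes, copies of the mRNA elsewhere in the genome: RPL21 has more annotated pseudogenes than any other member, RPS26 has 36 and RPS27 has 30. The authors counted only reads with a unique alignment, and reads that match a gene and its pseudogene equally well are lost from both. The median level was 337.1 CPM per kilobase for the 22 members with 0 to 5 pseudogenes, 279.5 for the 30 members with 6 to 20 and 101.9 for the 25 members with more than 20. In batch 2 the same medians were 348.0, 286.7 and 97.7 CPM per kilobase. The groups overlapped widely: in batch 1 the levels ran from 33.9 to 1346 with 0 to 5 pseudogenes and from 3.71 to 861 with more than 20. RPL5, with 35 pseudogenes, stood at 829 CPM per kilobase, and RPL41, with 3, at 33.9. Levels between members are therefore a description of what was counted, and whether the genes with many pseudogenes are made at lower levels was not tested.

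**Figure D1:**
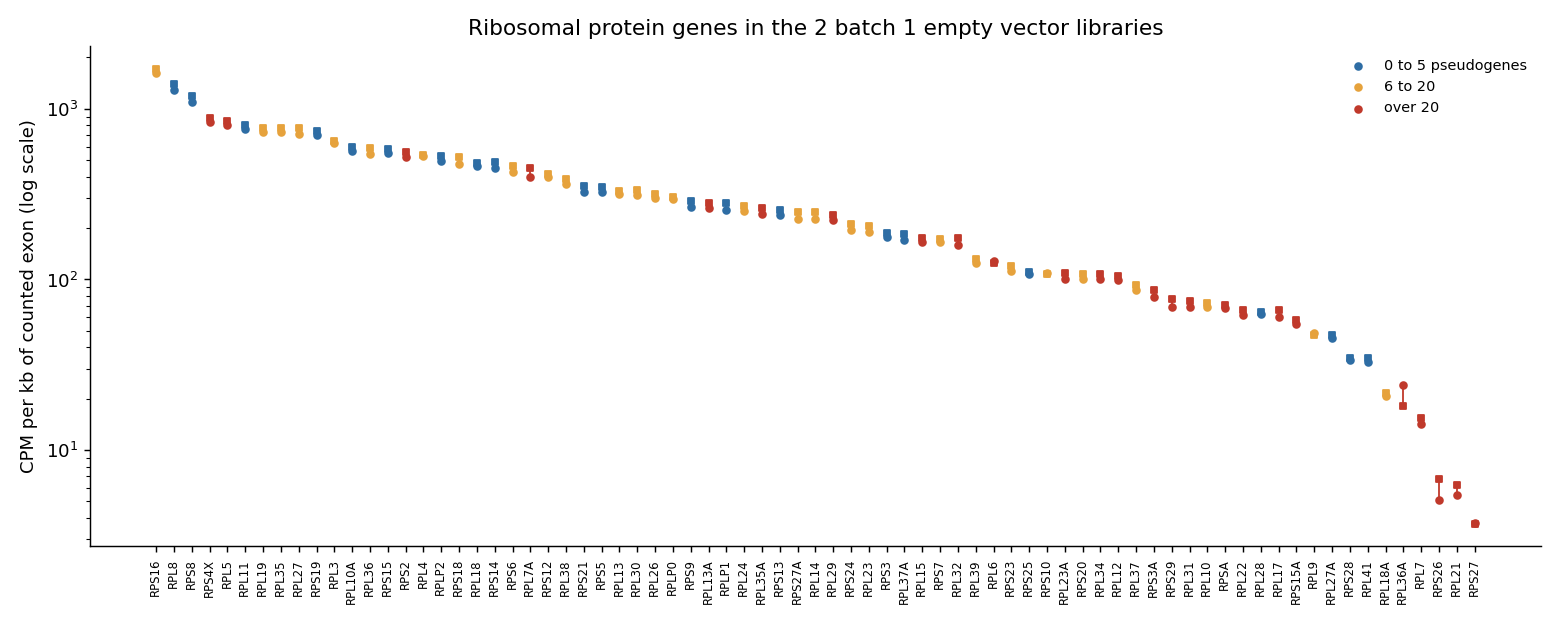
Level of 75 ribosomal protein genes in the empty vector cells of batch 1, as CPM per kilobase of counted exon on a log axis, with a circle for replicate 1, a square for replicate 2 and a line between them, coloured by the number of annotated pseudogenes. The 25 genes with more than 20 pseudogenes have a median of 101.9, and RPS27, RPL21 and RPS26, at 3.71 to 5.91, are the lowest genes drawn.

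A few members were counted over a small piece of their mRNA. RPL36A was counted over 34 bases and received 3 to 28 reads per library, so its fold changes carry little information. RPS10 was counted over 194 bases, against 588 bases of its canonical transcript, and RPL17 over 476 of 614 bases.

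To find libraries with a short-transcript bias, each library was compared with the mean of its batch's empty vector libraries on the scale of log2(CPM + 0.5), and the slope of that difference on log2 transcript length was taken over tested protein-coding genes other than the members (13140 genes in batch 1, 12988 in batch 2). A negative slope means that short transcripts had higher values than long ones. The members are short, with a median transcript of 827 bases against 3427 bases for the other tested coding genes of batch 2. The slope was -0.207 in miR-155 replicate 2, -0.202 in miR-372 replicate 2, -0.118 in miR-302a replicate 1, -0.117 in miR-302a replicate 3 and -0.112 in miR-133a replicate 2. These 5 libraries lay below -0.1, a limit chosen after the slopes were seen, and the other 13 libraries of batch 2 lay between -0.0809 and 0.0363. The 3 empty vector libraries had the 3 highest slopes (-0.0188, -0.0175 and 0.0363), so all 15 miRNA libraries of batch 2 leaned towards short transcripts relative to their controls. In batch 1 the slopes stayed between -0.0423 and 0.0283.

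The ribosomal protein genes were high in the same 5 libraries. The median difference of the members from the empty vector mean was 0.33 on the log2 scale in miR-133a replicate 2, 0.33 in miR-155 replicate 2, 0.23 in miR-302a replicate 1, 0.33 in miR-302a replicate 3 and 0.32 in miR-372 replicate 2. In each of them 71 to 77 of the 78 members lay above the empty vector mean, and the members took 4.78% to 5.10% of reads. In the other 13 libraries of batch 2 the median difference ran from -0.08 to 0.19 and the share from 3.88% to 4.62%, so the 5 libraries did not overlap with the rest on slope, member median or share. The median difference of the nuclear oxidative phosphorylation genes was 0.20 to 0.58 in the 5 libraries and -0.07 to 0.19 in the other 13. That of the mitochondrial ribosomal protein genes was 0.11 to 0.44 in the 5 and -0.05 to 0.18 in the others, so this family overlapped between them. What sets the slope was not tested.

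**Figure D2:**
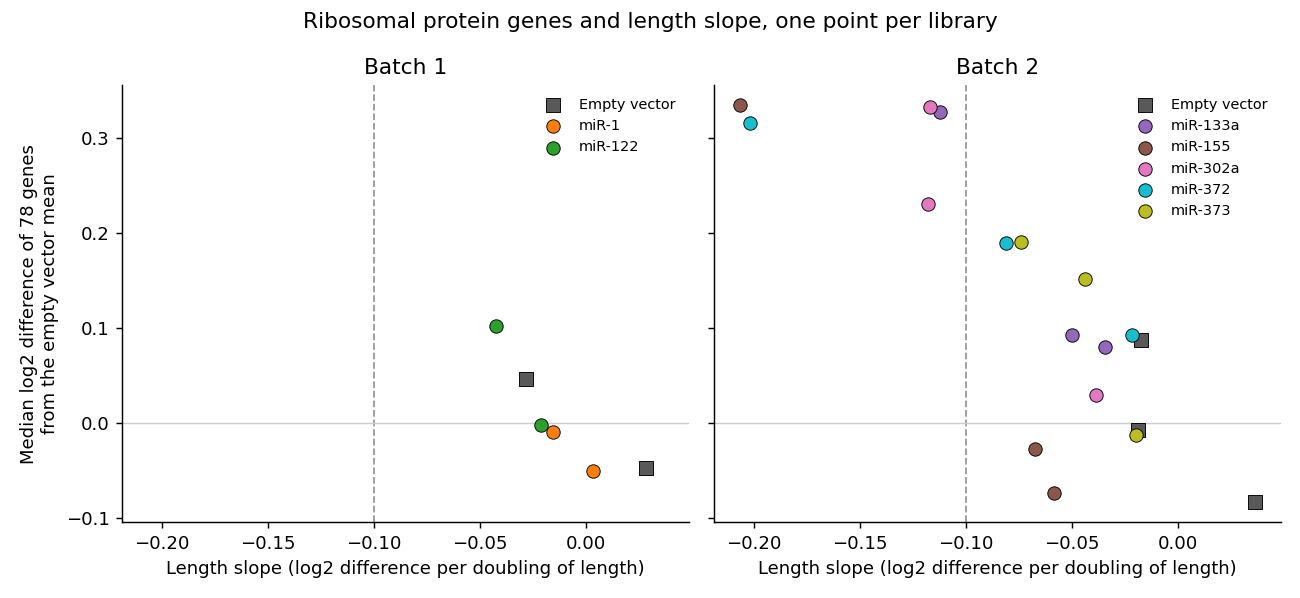
Each point is a library, with the length slope per library (log2 difference from the empty vector mean per log2 transcript length) on the x axis and the median log2 difference of the 78 ribosomal protein genes from the empty vector mean on the y axis, batch 1 in one panel and batch 2 in the other. The 5 batch 2 libraries left of the dashed line at -0.1 have medians of 0.23 to 0.33, and the other 13 lie between -0.08 and 0.19.

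Each comparison below uses edgeR's quasi-likelihood test over all genes of the batch, with Benjamini-Hochberg adjustment and a threshold of 0.05, and a gene past the threshold is named as higher or lower. In miR-1 cells, 15 members were lower and 1 was higher than in the empty vector cells, while 24.5% of all tested genes changed. The 16 members are 20.5% of 78, and the 15 lower ones can be read against 13.7% of all tested genes that were lower. The lower members were 11 of the large subunit (RPL23A, RPL10, RPL15, RPL22, RPL32, RPL19, RPL29, RPL30, RPL6, RPL13A and RPL23) and 4 of the small subunit (RPS10, RPS23 and RPS24 among them). Their log2 fold changes ran from -0.60 to -0.13 with a median of -0.19. The median of all 78 members was -0.03, beside -0.00 for all genes tested, with 32 members above 0.

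RPS10, a protein of the 40S head, had 13.3 and 14.3 CPM in the 2 miR-1 libraries against 21.1 and 20.7 CPM in the empty vector libraries. It was the lowest of the called members, at -0.60 ± 0.0933 (log2 fold change ± SE, adjusted p = 0.000116). RPL23A, which lies at the exit of the peptide tunnel, had 172 and 166 CPM against 218 and 240, and fell by 0.44 on the log2 scale (SE 0.0460, adjusted p = 9.48e-07). In both genes the miR-1 libraries lay below both empty vector libraries.

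RPL10, which joins the 60S subunit late in its assembly, had 213 and 210 CPM with miR-1 against 258 and 269 CPM in the empty vector libraries (log2 fold change -0.32, SE 0.0403, adjusted p = 1.14e-05). RPL15, a component of the 60S core, had 739 and 742 CPM against 866 and 911 (-0.26, SE 0.0387, adjusted p = 6.09e-05). For both genes the pair of miR-1 libraries differed by less than the pair of controls, and the groups did not overlap. Over all 78 members, 29 had both miR-1 libraries below both controls (37.2%, beside 31.6% of all genes tested) and 11 had both above (14.1%, beside 29.7%). RPS2, the single member that passed in the other direction, had 833 and 797 CPM against 726 and 775 (0.12, SE 0.0420, adjusted p = 0.045), and it missed the threshold with DESeq2 (adjusted p = 0.0868), with the replicate number as a block (0.0977) and without the first empty vector library (0.202).

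The number of called members in miR-1 cells depended on single libraries. It was 28 without the first empty vector library, all lower, and 8, all lower, without either miR-1 library. Without the second empty vector library it was 20, of which 9 were higher and 11 lower. The 2 empty vector libraries stood apart in the members: 73 of 78 lay above the control mean in the second and 5 in the first, with shares of 4.04% and 3.78% of reads. The median of the members was -0.07 without the first and 0.02 without the second. For fits that leave out a library, here and below, the share of all genes called was not taken.

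miR-122 cells give the same genes a second reading, against the same controls. Only 2 members were called, both lower, while 5.92% of all genes changed (1.86% higher and 4.06% lower). RPS10 was lower again, at 16.3 and 13.4 CPM against 21.1 and 20.7 (-0.49, SE 0.0925, adjusted p = 0.00187), but it lost its call without miR-122 replicate 2 (-0.36, adjusted p = 0.0819).

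RPL10 (247 and 249 CPM), RPL15 (938 and 902 CPM) and RPL23A (211 and 214 CPM) were not called in miR-122 cells, with log2 fold changes of -0.09, 0.05 and -0.11. RPL15 in miR-122 cells overlapped with the controls, while RPL10 and RPL23A lay just below them. The median of all members was 0.05, with 63 of 78 above 0, beside 0.00 for all genes. Without the second empty vector library 22 members were called, 21 of them higher, without miR-122 replicate 1 only 1 was called, and without miR-122 replicate 2 there were 2, both higher.

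The direct test of miR-1 against miR-122 does not use the empty vector libraries as its reference. It called 19 members lower in miR-1 cells and 1 higher, 25.6% of the 78, while 31.2% of all genes differed (16% lower and 15.2% higher). The median of the members was -0.08. RPL23A differed by -0.33 (adjusted p = 1.87e-05), RPL15 by -0.31 (adjusted p = 4.84e-06), RPL13A by -0.29 (adjusted p = 0.000124) and RPL10 by -0.23 (adjusted p = 0.000256). For 42 members both miR-1 libraries lay below both miR-122 libraries (53.8%, beside 33.7% of all genes), and for 3 both lay above (3.85%, beside 33.6% of all genes). Of the 19, 15 belong to the large subunit. The share called, in either direction, was 32.6% of its 46 members and 15.6% of the 32 members of the small subunit. The count was 9 without miR-122 replicate 1, 12 without miR-1 replicate 2 and 13 without miR-1 replicate 1.

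**Figure D3:**
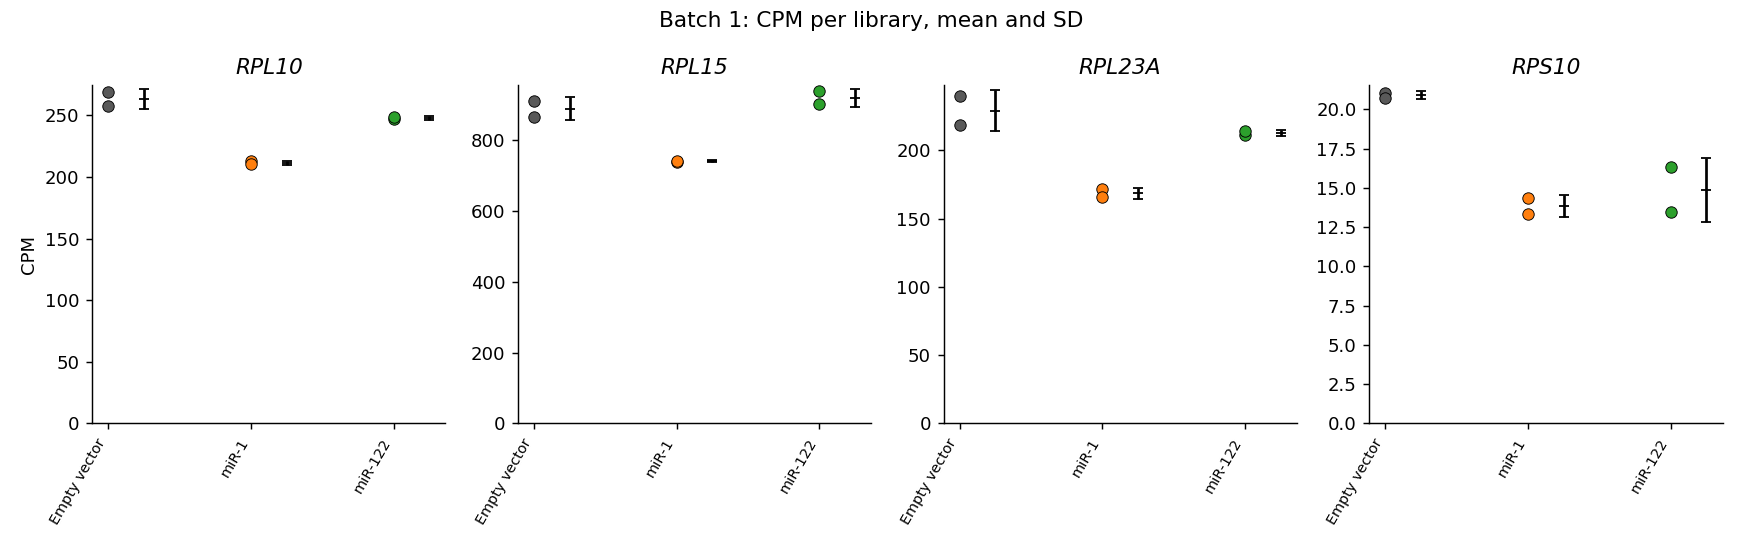
Level in CPM of RPL10, RPL15, RPL23A and RPS10 in the libraries of batch 1, a point for each library, grouped as empty vector, miR-1 or miR-122. RPL10, RPL15 and RPL23A are lower in both miR-1 libraries (for RPL15, 739 and 742 CPM) than in every other library, and RPS10 is lower in both miRNAs than in the empty vector (21.1 and 20.7 CPM).

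Seed matches to miR-1 were sparse in the family. The longest annotated 3'UTR of each gene was searched on the transcript strand for an 8mer (a match to positions 2 to 8 followed by A), a 7mer-m8 (positions 2 to 8) or a 7mer-A1 (positions 2 to 7 followed by A), which for miR-1 are ACATTCCA, ACATTCC and CATTCCA. A match held by 9 of 78 members (11.5%) compares with 21.5% of 18724 coding genes, and the median 3'UTR searched was 525 bases in members against 1222 bases in coding genes. The 9 members with a match had a median log2 fold change of -0.07 and all 9 lay below 0, beside a median of -0.01 in the 69 without one. In the usually shorter 3'UTR of the canonical transcript, 8 members had a match, with a median of -0.05 and 6 below 0.

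Of the 15 members lower in miR-1 cells, 3 had a match in the longest 3'UTR (RPL23A, RPL29 and RPL13A). The longest 3'UTR of RPL15 held none, but its canonical 3'UTR, 1488 bases long and of another transcript, held a 7mer-A1 that begins at base 949. The site of RPL23A and, for contrast, the one of RPL14, which was not called (-0.06, adjusted p = 0.361), are shown with the matched bases in capitals, read from the GRCh37 genome.
RPL23A, 7mer-A1 at chr17:27051088-27051094, plus strand: atgtatgatCATTCCAgagatcttt
RPL14, 7mer-m8 at chr3:40509833-40509839, plus strand: taaacaaagACATTCCtgcctggca
The members with a 7mer-m8 site were RPL14, RPL29, RPS28 and RPS29, and of these RPL29 alone was called (-0.16, adjusted p = 0.00708). RPS28 differed by -0.01 and RPS29 by -0.07. RPL10 and RPS10 held no match in the window searched.

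In miR-122 cells, RPL28 was the single member with an 8mer or 7mer-m8 match, and it lay at 431 CPM ± 28.1 against 415 ± 9.34 (n = 2 each, log2 fold change 0.06, adjusted p = 0.538). The 9 members with any match had a median of 0.06 and the 69 others a median of 0.05, with 0 of the 9 called.

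In miR-155 cells, 1 member changed: RPL17, a 60S protein that lines the peptide exit tunnel. It was lower, while 7.63% of all genes changed (2.82% higher and 4.81% lower). RPL17 had 15.01, 17.90 and 14.38 CPM in the 3 miR-155 libraries and 24.3, 23.9 and 25.5 CPM in the empty vector libraries. The other 15 libraries of batch 2, controls included, ranged from 21.7 to 30.7 CPM, so the 3 miR-155 libraries were the 3 lowest of the batch. The means were 15.8 ± 1.88 and 24.6 ± 0.799 CPM (SD, n = 3 each), a log2 fold change of -0.64 (SE 0.127, adjusted p = 0.00338).

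RPL17 holds an 8mer match to miR-155 (AGCATTAA) that starts at base 5 of its 3'UTR, which is 66 bases long in the longest annotated form and 38 bases in the canonical transcript. The site lies at chr18:47014877-47014884 on the minus strand of GRCh37, in the gene RPL17 at chr18:47014823-47018878, and is shown with the matched bases in capitals.
RPL17: attcAGCATTAAaataaatgt
The first letters shown follow the stop codon. RPL17 has 50 annotated pseudogenes, and the readthrough gene RPL17-C18orf32 overlaps it and is not in the tables, so its counts of 203 to 234 reads per miR-155 library may hold a part of the reads of this locus only.

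RPL17 was lower in miR-155 cells, where most but not all members had a fold change above 0. The median log2 fold change of all 78 members was 0.08, beside 0.01 for all genes, and 61 of 78 lay above 0. By library, the median difference of the members from the empty vector mean was 0.33 in miR-155 replicate 2, the biased library. In replicates 1 and 3 it was -0.03 and -0.07. The biased library had the highest RPL17 of its group. Without the 5 biased libraries of batch 2, RPL17 fell by 0.74 on the log2 scale (adjusted p = 0.000203), and with the length slope as a covariate by 0.87 (adjusted p = 8.46e-05). RPL17 passed the threshold in every setting tried, with log2 fold changes from -0.87 to -0.58, and in no other comparison with an empty vector was it called.

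**Figure D4:**
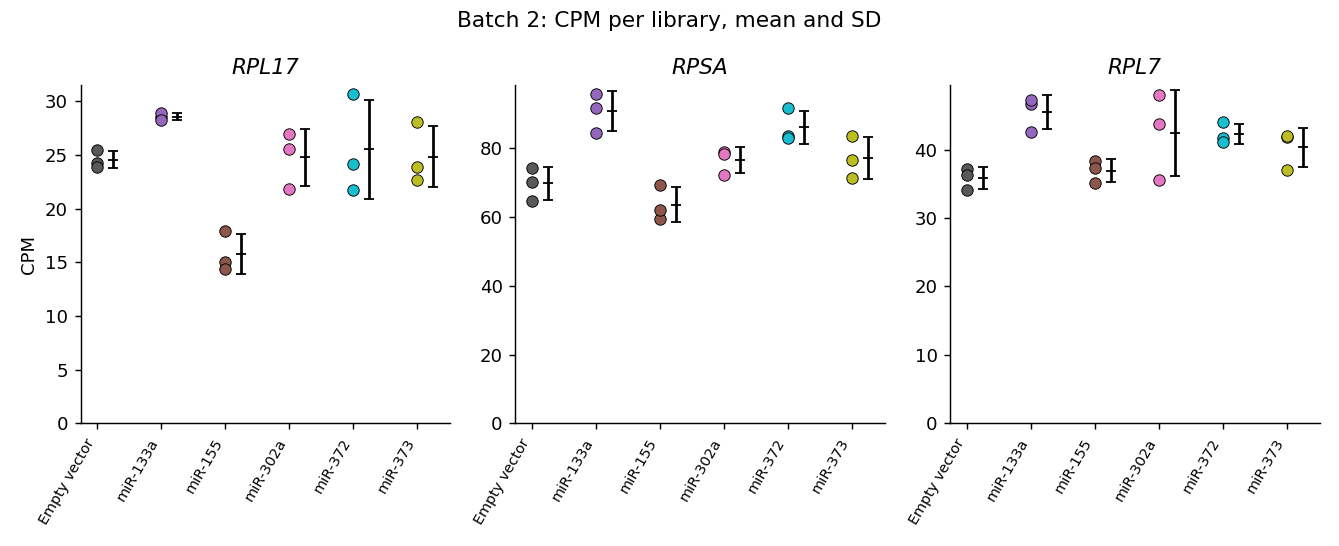
Level in CPM of RPL17, RPSA and RPL7 in the libraries of batch 2, a point for each of the 3 libraries of a group. RPL17 has its 3 lowest values in miR-155 (14.4 to 17.9 CPM, others 21.7 to 30.7), and RPSA has 84.5 to 96.0 CPM in miR-133a against 64.7 to 74.4 in the empty vector.

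The other members with an annotated match to miR-155 were not lower in the group comparison, which includes the biased replicate 2. The 7 other members with a match in the longest 3'UTR were RPL15, RPL29, RPL31, RPL37A, RPS14, RPS20 and RPS29, 0 of 7 were called, and their log2 fold changes ran from 0.05 to 0.19. RPS20 and RPS29 hold an 8mer, as RPL17 does. The matches of RPS20, RPS29, RPL15, RPL29 and RPL31 lie outside the canonical 3'UTR, and whether the cells express the longer forms was not tested. RPS14, a protein of the 40S platform, had 1430 CPM ± 207 against 1256 ± 90.4 (n = 3 each, 0.19, adjusted p = 0.39).
In the canonical 3'UTR 4 members had a match (RPL17, RPS3, RPL37A and RPS14), of which RPL17 was the only one called. Matches in the longest 3'UTR were held by 8 members (10.3%), beside 16.7% of coding genes.

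In miR-133a cells, 2 members were higher and 0 lower, while 5.34% of all genes changed (1.37% higher and 3.97% lower). RPSA, the 40S protein also known as the laminin receptor, had 91.9, 96.0 and 84.5 CPM against 74.4, 64.7 and 70.4 CPM in the empty vector libraries. All 3 miR-133a libraries lay above all 3 controls (90.8 ± 5.81 against 69.8 ± 4.87, SD, n = 3 each), with a log2 fold change of 0.38 (SE 0.0835, adjusted p = 0.00917). RPL7, a 60S protein, had 46.6, 47.3 and 42.6 CPM against 37.1, 34.1 and 36.3 (0.34, SE 0.0953, adjusted p = 0.0407).

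Neither gene is among those with a miR-133a match, and both have many pseudogenes (74 for RPSA and 61 for RPL7). Without the biased libraries RPSA stayed at 0.34 (adjusted p = 0.0164) and RPL7 at 0.31 (adjusted p = 0.0255). With the length slope as a covariate RPSA was 0.34 (adjusted p = 0.0128) and RPL7 missed the threshold at 0.27 (adjusted p = 0.0725). RPL7 lost its call on leaving out any single library of the 6 (adjusted p = 0.0585 to 0.159). RPSA lost it without empty vector replicate 2 (adjusted p = 0.0676) or miR-133a replicate 2 (0.0628). Scaled to the ribosomal protein genes themselves, RPSA differed by 0.21 (adjusted p = 0.367) and RPL7 by 0.17 (adjusted p = 0.397).

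The whole family leaned upwards in miR-133a cells: the median of the 78 members was 0.17, beside 0.00 for all genes, with 73 of 78 above 0. All 3 miR-133a libraries lay above all 3 controls for 28 members (35.9%), beside 17.5% of all genes and 34.0% of the 1299 shortest coding genes, and for 0 members did all 3 lie below, beside 17.9% of all genes and 5.08% of the short ones. Those short genes, with transcripts of up to 1364 bases, had a median of 0.14. Without the biased library, miR-133a replicate 2, the member median was 0.08. With the slope as a covariate the median was 0.02, and since every miRNA library of the batch had a lower slope than every control, slope and miRNA cannot be fully told apart.

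Of the 6 members with an 8mer or 7mer-m8 match to miR-133a, among them RPL10, RPL28, RPS14 and RPS3, 0 were called. RPL10, whose first match is shown, had 270 CPM ± 22.1 against 236 ± 10.3 (n = 3 each, 0.20, adjusted p = 0.188), with all 3 miR-133a libraries above the controls.
RPL10, 7mer-m8 at chrX:153629563-153629569, plus strand of GRCh37: aacacatgcGGACCAAgaggggctt
The members with any match in the longest 3'UTR had a median of 0.17, as did those without one there. In the coding sequence of the same transcripts, 4 members held an 8mer (RPS6) or 7mer-m8 (RPL7A, RPS14 and RPS19). They are 5.13% of members, beside 11.4% of coding genes. The paper reports that miR-133a lowered genes with predicted sites in the coding sequence. Whether such matches went with the level of the members was not tested.

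miR-302a, miR-372 and miR-373 share a seed and gave the family 3 readings of 1 set of sites. With miR-302a 0 members were called, while 7.88% of all genes changed (3.02% higher and 4.85% lower). By edgeR 18 of 78 members had an unadjusted p under 0.05, a share close to that of all genes tested (3265 of 14054). DESeq2 also called 0, and the median was 0.20 with 76 of 78 above 0. With miR-372, RPSA was the only member called (higher), while 11.4% of all genes changed (4.82% higher and 6.56% lower), and the median was again 0.20 with 76 of 78 above 0. With miR-373 0 members were called by edgeR or by DESeq2, while 5.13% of all genes changed (1.83% higher and 3.3% lower). An unadjusted p under 0.05 by edgeR was reached by 0 members, beside 2487 of 14054 genes. The median was 0.11 with 72 of 78 above 0.

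RPSA had 83.7, 91.8 and 83.1 CPM in miR-372 cells against 74.4, 64.7 and 70.4 in the controls, without overlap (0.30, SE 0.0832, adjusted p = 0.0238). It was 0.26 without the biased libraries (adjusted p = 0.0419) and 0.25 with the length slope as a covariate (adjusted p = 0.0784). The call was lost without empty vector replicate 2 (adjusted p = 0.115), empty vector replicate 3 (0.0608) or miR-372 replicate 2 (0.085). In the other comparisons of batch 2 RPSA was not called: 79.1, 72.3 and 78.4 CPM with miR-302a, 76.6, 71.5 and 83.7 CPM with miR-373, and 69.3, 59.4 and 62.1 CPM with miR-155. The miR-302a and miR-373 values overlapped with the controls at their lower end, and of the 3 miR-155 values 2 lay below all controls.

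All 3 miR-372 libraries lay above all controls for 32 members (41.0%), beside 14.2% of all genes and 25.3% of the 1299 shortest coding genes. For miR-302a this held for 15 members (19.2%), beside 14.3% and 33.6%, and for miR-373 for 5 members (6.41%), beside 12.7% and 20.4%. In miR-155 cells it held for 0 members, beside 14.5% of all genes and 33.1% of the 1299 shortest coding genes, although the short genes had a median of 0.21 there. The median of the short genes was 0.15 with miR-302a, 0.17 with miR-372 and 0.07 with miR-373. Without the biased libraries the member median was 0.04 with miR-302a, 0.14 with miR-372, 0.11 with miR-373 and -0.06 with miR-155. That fit keeps replicate 2 as the lone miR-302a library, so the miR-302a value rests on a single library. With the length slope as a covariate it lay between -0.03 and 0.01 for the 3 same-seed miRNAs and at -0.17 for miR-155.

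**Figure D5:**
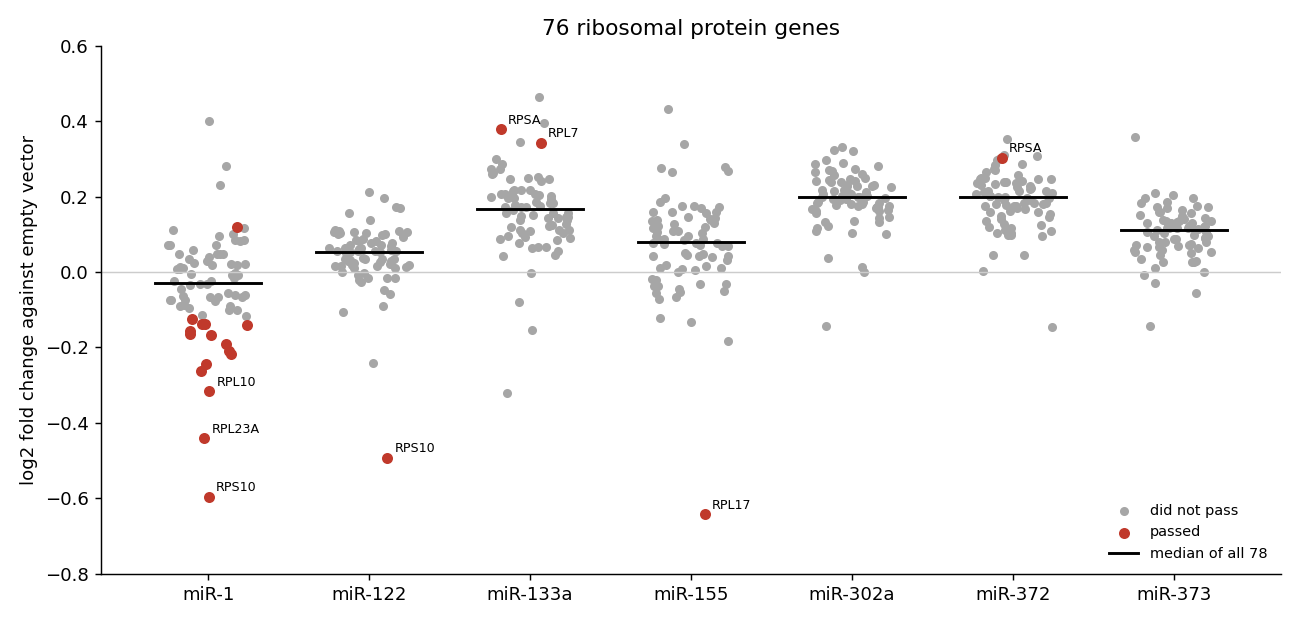
Log2 fold change against the empty vector of its batch for 76 ribosomal protein genes (points), 1 column for each of the 7 miRNAs, with genes past the threshold in red and the median of all 78 members as a black line. The medians are -0.03 and 0.05 in batch 1 and 0.08 to 0.20 in batch 2, and RPL17 in miR-155 cells is the one red point below 0 in batch 2.

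Compared with each other, the same-seed miRNAs gave 0 called members and 0% of all genes called by edgeR, with 0 members at an unadjusted p under 0.05. The median of the members was 0.00 for miR-302a over miR-372, 0.10 for miR-302a over miR-373 and 0.09 for miR-372 over miR-373. For miR-302a over miR-372, 0 members had all libraries above and 1 had all below, beside 1.47% and 1.45% of all genes. For miR-302a over miR-373, 1 member had all above and 0 all below, beside 2.7% and 2.78%, and for miR-372 over miR-373 1 and 0, beside 1.93% and 2.31%. A p-value that misses the threshold does not show equal levels, and these medians were -0.09, -0.07 and 0.04, in the same order, without the biased libraries. In that fit the medians that involve miR-302a rest on its replicate 2 alone.

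The family held more matches to this shared seed (AGCACTTA, AGCACTT and GCACTTA) than to the others, 14 of 78 members (17.9%) beside 26.01% of coding genes. The 12 members with an 8mer or 7mer-m8 were RPL13, RPL13A, RPL14, RPL23, RPL28, RPL32, RPL37, RPL37A, RPL4, RPS15A, RPS20 and RPS23. Of these 12, 0 were called with any of the 3 miRNAs, and all 12 lay above 0 in each, at 0.12 to 0.29 with miR-302a, 0.10 to 0.31 with miR-372 and 0.03 to 0.17 with miR-373. RPL37, with an 8mer 6018 bases into a 7242-base 3'UTR, is shown because it holds the only 8mer of the 12.
RPL37, 8mer at chr5:40826581-40826588, minus strand of GRCh37: gctgaattgAGCACTTAacaattctc
RPL37, a small zinc-binding protein of the 60S subunit, had 825 CPM ± 120 with miR-302a, 803 ± 12.8 with miR-372 and 766 ± 85.9 with miR-373, against 731 ± 64.1 in the controls (n = 3 each), and was called in none (adjusted p = 0.415, 0.513 and 0.845). Members with a match had medians of 0.17, 0.17 and 0.08 with the 3 miRNAs, and members without one had 0.20, 0.20 and 0.12.

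Of 9 chosen members with roles outside protein synthesis or in the stalk, RPSA was the only one called in any of the 7 comparisons with an empty vector. The choice does not take in every member with such a role: RPL23, which also binds MDM2, is outside it and was among the lower members in miR-1 cells. RPL5 (976 CPM ± 37.9 in the empty vector of batch 1) and RPL11 (1143 ± 50.3), the MDM2 inhibitors of the 5S particle, ranged from -0.07 to 0.22 and from -0.09 to 0.16 across the 7 comparisons. RPS6, the S6 kinase substrate (1125 ± 69.5), ranged from -0.00 to 0.20, and RPS19 (1931 ± 77.1) from -0.02 to 0.27. RPS3, which also acts in DNA repair, ranged from 0.03 to 0.22. The stalk proteins RPLP0, RPLP1 and RPLP2, which recruit elongation factors, ranged from 0.01 to 0.24, from -0.00 to 0.34 and from 0.01 to 0.25.

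The 5' ends show what most members share outside the rule. Of 63 members with an entry in the RefSeq promoter table (GRCh38.p14), 43 (68.3%) began with C within a run of at least 5 pyrimidines, beside 4.04% of 27305 starts in the table. The start windows of RPS6, RPLP0, RPSA and RPS10 are shown with the pyrimidine run from base 16, the annotated start, in capitals, beside RPL10 and RPL17, whose annotated starts have no such run.
RPS6, chr9:19380222-19380251, minus strand: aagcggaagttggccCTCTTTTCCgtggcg
RPLP0, chr12:120201097-120201126, minus strand: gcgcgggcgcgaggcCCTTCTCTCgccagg
RPSA, chr3:39406705-39406734, plus strand: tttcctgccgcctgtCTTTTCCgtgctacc
RPS10, chr6:34426055-34426084, minus strand: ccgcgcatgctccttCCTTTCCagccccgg
RPL10, chrX:154398050-154398079, plus strand: tttttccactctcagaaatatacgtctgtc
RPL17, chr18:49492451-49492480, minus strand: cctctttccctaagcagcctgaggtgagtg
These are annotated starts and not measured ones, and the absence of a run says only that it does not begin at that base.

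Other TOP mRNAs, mostly translation factors, were read as a list of 19 tested genes. In miR-1 cells 2 were higher and 4 lower (median -0.06), so that 31.6% were called, beside 24.5% of all genes. The extremes were EEF1G, a subunit of the elongation factor complex, as the highest (0.15, adjusted p = 0.0122) and HNRNPA1, a splicing regulator, as the lowest (-0.22, adjusted p = 0.00033). In miR-122 cells EEF1G was the only one called (0.16, adjusted p = 0.0241). In miR-133a cells EEF1D was higher (0.26, adjusted p = 0.0431), and in miR-155 cells EEF2, the translocation factor, was lower (-0.39, adjusted p = 0.0148). A single gene is 5.26% of the list, beside 5.92%, 5.34% and 7.63% of all genes called in these 3 comparisons. With miR-302a, miR-372 and miR-373, 0 of 19 were called, beside 7.88%, 11.4% and 5.13% of all genes, and their medians were 0.14, 0.13 and 0.09. By edgeR 3, 3 and 0 of them had an unadjusted p under 0.05, beside 3265, 3752 and 2487 of 14054 genes.

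Of 45 ribosome assembly factors, 20 were higher in miR-1 cells, beside 10.8% of all genes, 1 was lower, beside 13.7%, and 24 were not called. Their median was 0.13, and the difference between this list and the members was not tested. GRWD1, a histone-binding factor of 60S assembly, was the highest (81.2 CPM ± 3.23 against 62.7 ± 0.651, n = 2 each, 0.37, adjusted p = 3.61e-05), and EIF6, which keeps the 60S subunit from joining too early, was the lower one (139 ± 7.84 against 164 ± 4.10, -0.24, adjusted p = 0.000814). In the direct test of miR-1 against miR-122, 19 were higher in miR-1 cells and 2 lower (46.7%, beside 31.2% of all genes). In the other comparisons with an empty vector at most 3 of 45 were called. They were NMD3 with miR-122 (0.17), IMP4 with miR-133a (0.32) and miR-302a (0.34), NOLC1 with miR-155 (-0.28), and 3 higher with miR-372, among them NOP16 (0.37). These are 2.22% of the list for 1 gene and 6.67% for 3, in each comparison below the share of all genes called (5.34% to 11.4%). With miR-373 edgeR called 0 of 45, with 4 at an unadjusted p under 0.05, beside 2487 of 14054 genes.

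Of 17 genes of mTORC1 signalling and MYC, which set the output of the family, 2 were higher and 1 lower in miR-1 cells, RPS6KB2 highest (0.23, adjusted p = 0.00298) and MYC the lower one (-0.28, adjusted p = 8.17e-05). These 3 are 17.6% of the list, beside 24.5% of all genes. RPTOR was the only one called in miR-122 cells (-0.19, adjusted p = 0.0446). In miR-133a cells 0 were called, with 2 at an unadjusted p under 0.05 by edgeR, beside 2873 of 14054 genes. In miR-155 cells 2 were higher and 4 lower, with MLST8 at 0.39 (adjusted p = 0.00785) and DEPTOR, an inhibitor of mTOR, at -0.57 (adjusted p = 0.0353). These 6 are 35.3% of the list, beside 7.63% of all genes. With miR-302a 3 were higher, EIF4EBP1 among them (0.46, adjusted p = 0.0144), and with miR-372 4 were higher, DEPTOR the highest (0.63, adjusted p = 0.00942). DEPTOR was the 1 called with miR-373 (0.53, adjusted p = 0.0429). The shares were 17.6% with miR-302a, 23.5% with miR-372 and 5.88% with miR-373 and with miR-122, beside 7.88%, 11.4%, 5.13% and 5.92% of all genes in that order, and they rest on few genes.

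The mitochondrial ribosomal proteins, a separate family of 73 tested genes, had 10 higher and 1 lower member in miR-1 cells (median 0.05), 1 and 1 with miR-122, 2 and 1 with miR-133a, 2 and 0 with miR-155 and 4 and 0 with miR-372. The called shares were 15.1%, 2.74%, 4.11%, 2.74% and 5.48% in that order, each below the share of all genes called (24.5%, 5.92%, 5.34%, 7.63% and 11.4%). With miR-302a and miR-373 edgeR called 0 of 73 (11 and 6 at an unadjusted p under 0.05, beside 3265 and 2487 of 14054 genes). Their medians in batch 2 were 0.20 with miR-133a, 0.18 with miR-155, 0.15 with miR-302a, 0.20 with miR-372 and 0.11 with miR-373, all above 0 as those of the cytosolic family were. The 74 tested oxidative phosphorylation genes had medians of 0.17, 0.29, 0.20, 0.22 and 0.12 in the same order.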

How the data were processed

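RNA was polyA-selected and sequenced with a directional kit from 1000 ng of total RNA per sample. The authors clipped adapters, aligned the reads to hg19 with TopHat (2.1.1), assigned uniquely aligned reads to gene exons with stranded featureCounts, and deposited the raw counts, not normalized, in 1 table for each batch. 14 further deposited tables hold the authors' own comparisons (fold changes, p-values) and were not used. The length column, 1 column of no sample, gave the counted length.

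Of 29794 genes, 28543 matched the GENCODE annotation on GRCh37. Counts were fitted in R (4.3.3) with edgeR (4.0.16), with filterByExpr (minimum count 10), TMM factors and a quasi-likelihood fit with all groups of a batch, the batches apart. Benjamini-Hochberg adjustment covered all tested genes (threshold 0.05), and the prior count was 0.125. The SE was derived from the log2 fold change and the F statistic. The precision of the levels is limited by 13047400 to 35040778 counts per library. Alternatives were DESeq2 (1.42.0), the likelihood ratio test, other scalings and filters, only the 2 groups compared, the replicate block, the length slope as a covariate, other 3'UTRs, and leaving out each library. Leaving out the biased libraries, scaling to the members, canonical lengths and canonical 3'UTRs were added after the data were seen. The functions were tested on simulated data.

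Members and lists were chosen with earlier results of these data known, and the named genes are, per comparison, the 3 highest and 3 lowest called members, members with an 8mer or 7mer-m8 match, 9 role genes, the extremes by level, and the highest and lowest called gene of each list. RPL36A, RPS26, the paralogs and the members of miR-1 against miR-122 beyond the rule were named after their values were seen. The correlation of same-numbered deviations exceeded 0.1 in all 3 pairs only for miR-302a and miR-372 (0.266, 0.297 and 0.147). For miR-302a and miR-373 it was -0.0194, 0.745 and 0.511. The labels state no pairing by replicate number, and whether the numbers pair libraries was not tested. No replicates were alike enough to be the same library. The level of RPS4Y1 and the values of a few genes that the rule names are not reported here, although the counts and medians include them.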

Additional observations from a re-analysis of the deposited data

How the results depend on the processing

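The RPL17 result in miR-155 cells kept its direction and call in all settings. The replicate number as a block called 11 members with miR-1, 2 with miR-122, 3 with miR-133a, 1 with miR-155, 0 with miR-302a, 1 with miR-372, 0 with miR-373 and 15 between miR-1 and miR-122. It changed no other count by over 1.5 times. The block called 0 for miR-302a against miR-372, the comparison where same-numbered deviations correlated above 0.1 in all 3 pairs. With the length slope as a covariate, 35 members were called with miR-1, 7 with miR-122, 1 with miR-133a, 5 with miR-155 and 0 with miR-372, the medians were 0.018 with miR-133a, -0.17 with miR-155, 0.000833 with miR-302a, -0.026 with miR-372, 0.0099 with miR-373 and -0.022 for miR-372 against miR-373, and RPLP2 in miR-155 cells reversed to -0.31 (edgeR quasi-likelihood adjusted p = 0.0241). Scaled to the ribosomal protein genes, 6 were called with miR-1, 5 for miR-1 against miR-122 and 0 with miR-133a and miR-372. DESeq2 called 1 with miR-122 and 4 with miR-372, and the likelihood ratio test 4 and 3. Fits of only the 2 groups called 1 with miR-122, 33 for miR-1 against miR-122, 12 with miR-133a and 0 with miR-372. Without a filter 4 were called with miR-133a, 1 with miR-302a and 7 with miR-372, and TMM factors without the members called 2 with miR-372. Without the biased libraries 3 were called with miR-372. The medians were then 0.040 with miR-302a and -0.069 for miR-302a against miR-373, both with miR-302a replicate 2 as the lone library of its group. Over reads of tested coding genes the miR-1 share was 3.89%. With 8mer and 7mer-m8 sites only, 4 members had a miR-1 match and 1 a miR-122 match, and in the canonical 3'UTR 4 had a miR-155 match. Leaving out 1 library gave 8 to 28 members with miR-1, 1 to 22 with miR-122, 9 to 30 for miR-1 against miR-122, 0 to 1 with miR-133a (0 without replicate 2 of either group), 0 to 4 with miR-302a (4 without miR-302a replicate 2) and 0 to 5 with miR-372 (5 without miR-372 replicate 3, 0 without miR-372 replicate 2 or empty vector replicate 2 or 3). In batch 1 this leaves a lone library that is assumed to vary like the other groups. No readthrough gene was in the tables, so adding readthrough genes gave no value. The share of all genes called was not taken in these settings, so the counts cannot tell a change of the family from one of all genes. The cause of these changes was not tested.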

Other observations

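Of 6 tested paralogs with an L suffix, which the rule leaves out, 3 were lower in miR-1 cells (50%, beside 13.7% of all genes and 15 of the 78 members, a difference that was not tested): RPL39L (10.2 CPM ± 1.41 against 15.6 ± 0.730, SD, n = 2 each, log2 fold change -0.61, edgeR quasi-likelihood adjusted p = 0.000251), RPS27L (64.1 ± 0.573 against 74.0 ± 4.69, -0.21, adjusted p = 0.00834), and RPL26L1 (20.7 ± 0.520 against 24.0 ± 0.730, -0.21, adjusted p = 0.0384). RPL39L was lower than in miR-122 cells as well (-0.63, adjusted p = 0.000113), and in miR-122 cells it lay at 15.8 CPM ± 0.299. In miR-155 cells RPS27L was higher (105.7 CPM ± 20.2 against 78.3 ± 5.74, 0.43, adjusted p = 0.046), 16.7% of the 6, beside 7.63% of all genes. All 6 paralogs lay above 0 there, with a median of 0.28. The group holds the biased miR-155 replicate 2, and a fit of RPS27L without it is not given. FAU, which encodes a ribosomal protein made as a fusion with a ubiquitin-like protein, was called in none of the 7 comparisons with an empty vector, with -0.07 in miR-1 cells.

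Among genes linked to free ribosomal proteins, CDKN1A, the p21 cell cycle inhibitor, was called in 4 comparisons: higher with miR-1 (102 CPM ± 4.67 against 83.3 ± 1.504, 0.29, adjusted p = 0.000277) and miR-155 (0.52, adjusted p = 0.00178), and lower with miR-122 (66.5 ± 2.09, -0.32, adjusted p = 0.000302) and miR-302a (-0.37, adjusted p = 0.0233). MDM2, the ligase that RPL5 and RPL11 inhibit, was lower with miR-122 (-0.17, adjusted p = 0.0139).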
